A study of Mus musculus with 8 samples.

Results

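Ephrins are membrane-bound ligands and Eph receptors are the receptor tyrosine kinases that bind them on a neighbouring cell. Binding sends a forward signal into the cell that carries the receptor and a reverse signal into the cell that carries the ligand. Ephrins of the B class span the membrane and carry a cytoplasmic tail that docks PDZ-domain and SH2-domain proteins, whereas those of the A class are held by a lipid anchor. In bone, ephrin-B2 on osteoclasts and osteoblasts and EphB4 on osteoblasts are known for contact-dependent signals between and within the lineages. The 10 genes described here were taken by symbol from the deposited count table: the B ligands Efnb1, Efnb2 and Efnb3, the A ligands Efna1 and Efna2, the B receptors Ephb2, Ephb3, Ephb4 and Ephb6, and the A receptor Epha2. All 10 had 1 row among the 47706 in the table and all 10 passed the filter on low counts that left 16736 genes for testing.

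RNA was sequenced from 4 primary mouse calvarial osteoblast cultures treated with parathyroid hormone (PTH) for 24 hours and 4 treated with vehicle, after 7 days of differentiation. Calvarial osteoblasts are bone-forming cells digested from the skull of newborn mice. The study's methods describe osteogenic medium (with ascorbic acid and β-glycerol phosphate), serum starvation before treatment and an N-terminal human PTH peptide, while the sample labels name adipogenic differentiation for all 8 samples. Every sample name carries the prefix Con, and the labels give neither genotype nor strain, and do not say whether the 4 samples of a treatment came from separate preparations of cells, so p-values measure the spread between these samples. Total counts lay between 33605610 and 56090654 per PTH sample and between 41618108 and 46757836 per vehicle sample. Levels are given as CPM, that is counts scaled to library size with edgeR's TMM factors. The median over 10 osteoblast markers lay between 208 and 334 CPM per vehicle sample and between 225 and 353 CPM per PTH sample, and that over 8 adipocyte markers between 4.51 and 7.08 and between 4.52 and 6.41 CPM. Tnfsf11, the PTH target gene that encodes RANKL, had a log2 fold change of 6.48 (adjusted p = 4.28e-11 by the quasi-likelihood test of edgeR, with adjustment over all tested genes), and the PTH receptor gene Pth1r one of -0.70 (adjusted p = 4.43e-04).

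PTH lowered Ephb3 to 26.4% of its vehicle level, lowered Ephb4 and Epha2 to 74.2% and 72.4%, and raised Efnb2 1.28-fold. Of the 10 genes, 1 was thus higher and 3 were lower at an adjusted p under 0.05, and for these 4 genes the PTH samples did not overlap the vehicle samples. Over all tested genes, 45.8% were called in either direction, 23.3% higher and 22.5% lower, and in 43.0% of genes the treatments did not overlap. The count of 4 in 10 was therefore close to the share of the whole transcriptome that responded. The median log2 fold change of the 10 genes was -0.13, beside -0.00081 over all tested genes. The other 6 genes, Efnb1, Efnb3, Efna1, Efna2, Ephb2 and Ephb6, did not pass.

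The sequences just upstream of the 4 genes that passed are shown because PTH acts in part through cAMP and the transcription factor CREB, which binds the cAMP response element TGACGTCA or its TGACG core. They are RefSeq promoter sequences on GRCm38.p6, printed 5′ to 3′ on the strand of the gene and ending before the annotated gene. Capitals mark matches to the element or to its core on either strand. The Efnb2 sequence lies at chr8:8661243-8661492 on the minus strand, the Ephb3 sequence at chr16:21204545-21204754, the Ephb4 sequence at chr5:137349859-137350108 and the Epha2 sequence at chr4:141300971-141301220, the last 3 on the plus strand.
Efnb2: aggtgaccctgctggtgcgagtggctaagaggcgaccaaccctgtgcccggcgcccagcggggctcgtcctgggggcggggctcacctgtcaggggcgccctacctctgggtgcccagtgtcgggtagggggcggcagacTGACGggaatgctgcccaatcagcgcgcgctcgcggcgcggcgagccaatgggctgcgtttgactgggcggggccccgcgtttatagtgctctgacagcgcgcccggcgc
Ephb3: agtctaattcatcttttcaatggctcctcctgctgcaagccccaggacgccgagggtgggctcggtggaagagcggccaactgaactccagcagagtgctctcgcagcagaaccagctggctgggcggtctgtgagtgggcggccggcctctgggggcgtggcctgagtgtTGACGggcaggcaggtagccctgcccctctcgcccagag
Ephb4: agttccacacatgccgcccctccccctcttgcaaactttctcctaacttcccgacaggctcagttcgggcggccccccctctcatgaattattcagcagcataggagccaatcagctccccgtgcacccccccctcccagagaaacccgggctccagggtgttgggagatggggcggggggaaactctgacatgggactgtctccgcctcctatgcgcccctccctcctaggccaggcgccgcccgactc
Epha2: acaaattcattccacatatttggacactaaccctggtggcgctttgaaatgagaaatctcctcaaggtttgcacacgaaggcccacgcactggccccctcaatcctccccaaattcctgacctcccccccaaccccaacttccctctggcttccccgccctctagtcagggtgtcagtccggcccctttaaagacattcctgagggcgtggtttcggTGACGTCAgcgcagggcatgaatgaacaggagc

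RefSeq gave 10 windows for 9 of the genes (250 bases before to 50 after a start, with 2 starts for Efna1 and none matched for Efnb3). The full element TGACGTCA was in the window of Epha2 alone, at position -33 from the start, and in 1.79% of all 32851 windows of that length. The core TGACG, which the full element contains, was in the windows of 4 genes: Epha2, Efnb2 at -110, Ephb3 at -79 and Efnb1 at -26, beside 20.8% of all windows. None of the 10 windows held the AP-1 site TGANTCA (7.81% of all windows) or the RUNX core TGTGGT (16.8%). Matches therefore stood before genes that rose (Efnb2), that fell (Ephb3 and Epha2) and that did not pass (Efnb1), and a match is only a run of letters, not a bound site.

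Among the B ligands, Efnb1 was the most abundant per exon length. Efnb1, on chromosome X from 99136130 to 99148991 in GENCODE M21, encodes ephrin-B1, which is known from the skull sutures, where its loss disturbs the tissue boundaries. Its levels were 126.0, 125, 125 and 117 CPM in vehicle replicates 1 to 4 and 124, 103, 106 and 123 CPM in PTH replicates 1 to 4. All PTH samples lay below the 3 highest vehicle samples, but 2 of them lay above vehicle replicate 4, so the treatments overlapped. The log2 fold change of -0.11 (95% interval -0.27 to 0.05) did not pass (adjusted p = 0.247).

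Efnb2, on chromosome 8 from 8617434 to 8661242, encodes ephrin-B2, the preferred ligand of EphB4 and an arterial marker in vessels. It was measured at 77.3, 77.6, 78.2 and 73.5 CPM with vehicle and at 106, 85.0, 97.1 and 105 CPM with PTH. Every PTH sample was above every vehicle sample, and the vehicle samples were much closer to each other (76.6 ± 2.12 CPM, SD, n = 4) than the PTH samples (98.2 ± 9.68 CPM). The log2 fold change was 0.36 (standard error 0.0747, 95% interval 0.20 to 0.52, adjusted p = 0.00194), and an exact two-sided permutation test over the 8 samples gave p = 0.0286, the smallest that 4 samples against 4 allow. In size this was a modest response: Efnb2 stood at place 3138 of the 3907 genes called higher, whose median log2 fold change was 0.67. The assembled locus of Efnb2 holds 1 further row, with at most 5 counts in any sample, and the annotation lists 3 further entries on the same strand within it, whose reads cannot be told apart from those of Efnb2.

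Efnb3, on chromosome 11 from 69554092 to 69560205, encodes ephrin-B3, best known as a midline guidance cue of the nervous system. It was measured at 6.41 to 8.95 CPM (307 to 401 counts) per vehicle sample and 5.66 to 8.17 CPM (205 to 419 counts) per PTH sample. Its log2 fold change of -0.16 had a 95% interval from -0.49 to 0.18 (adjusted p = 0.433), so changes within that interval could not be resolved at its level.

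The A ligands did not pass either. Efna1, on chromosome 3 from 89271733 to 89281142, encodes ephrin-A1, a ligand of EphA2, and ranged from 13.0 to 17.0 CPM with vehicle and from 12.8 to 19.0 CPM with PTH. The estimated log2 fold change was 0.07 (95% interval -0.21 to 0.35, adjusted p = 0.674). Efna2, on chromosome 10 from 80179482 to 80190010 and known from topographic mapping in the brain, ranged from 12.7 to 15.1 CPM with vehicle and from 11.3 to 15.3 CPM with PTH. The estimate for Efna2 was close to 0, with a 95% interval of the log2 fold change from -0.24 to 0.24 (adjusted p = 0.996).

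Among the receptors, Ephb3, Ephb4 and Epha2 passed, and Ephb3 had the largest change of the 10 genes. Ephb3, on chromosome 16 from 21204755 to 21223305, encodes EphB3, a receptor with known roles in palate fusion and in the sorting of intestinal epithelium. Its vehicle levels were 110, 112, 113 and 94.3 CPM, and its PTH levels were 28.5, 24.9, 27.4 and 32.1 CPM. The highest PTH sample lay far below the lowest vehicle sample, and the treatments did not overlap. The mean fell from 107 ± 8.58 to 28.2 ± 2.97 CPM (n = 4 each), a log2 fold change of -1.92 (standard error 0.0890, 95% interval -2.12 to -1.73, adjusted p = 6.19e-09, exact permutation p = 0.0286). Ephb3 stood at place 98 of the 3762 genes called lower, whose median log2 fold change was -0.53.

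Ephb4 encodes EphB4, the receptor of ephrin-B2 in osteoblasts and in venous endothelium, and lies on chromosome 5 from 137350109 to 137378669. Its levels were 89.0, 81.5, 88.0 and 74.0 CPM with vehicle and 68.3, 52.1, 60.9 and 65.1 CPM with PTH. The treatments did not overlap, although vehicle replicate 4 and PTH replicate 1 came close to each other. The log2 fold change of -0.43 (standard error 0.0909, 95% interval -0.63 to -0.23) passed (adjusted p = 0.00208, exact permutation p = 0.0286). On the opposite strand the annotation places Zan, with at most 51 counts in any sample, and the strand setting of the counting was not given.

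Epha2, on chromosome 4 from 141301240 to 141329384, encodes EphA2, a receptor of A-class ephrins that is also found on osteoclast precursors and osteoblasts. It was measured at 36.1, 36.7, 35.2 and 36.3 CPM with vehicle and at 25.2, 25.8, 26.6 and 26.8 CPM with PTH. These were the tightest replicates of the 10 genes, with an SD of 0.628 CPM around 36.1 and of 0.728 CPM around 26.1. The log2 fold change was -0.47 (standard error 0.0616, 95% interval -0.60 to -0.33, adjusted p = 6.71e-05, exact permutation p = 0.0286).

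Ephb2 and Ephb6 completed the receptors. Ephb2, on chromosome 4 from 136647539 to 136835988, encodes EphB2, which binds all B-class ephrins and is known from synapses and axon guidance. It was measured at 81.4, 91.6, 84.8 and 83.0 CPM with vehicle and at 109, 83.0, 80.7 and 89.2 CPM with PTH. Only PTH replicate 1 lay above the vehicle samples, and the log2 fold change of 0.09 (95% interval -0.11 to 0.29) did not pass (adjusted p = 0.473). Ephb6, on chromosome 6 from 41605482 to 41620509, encodes EphB6, a family member without kinase activity. Its levels ranged from 13.3 to 17.3 CPM with vehicle and from 11.9 to 14.98 CPM with PTH, with a log2 fold change of -0.25 (95% interval -0.49 to -0.02) and an adjusted p of 0.0736. The adjusted p of Ephb6 passed without vehicle replicate 4 (log2 fold change -0.33, adjusted p = 0.0281) and without PTH replicate 1 (-0.33, adjusted p = 0.0259).

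**Figure D1:**
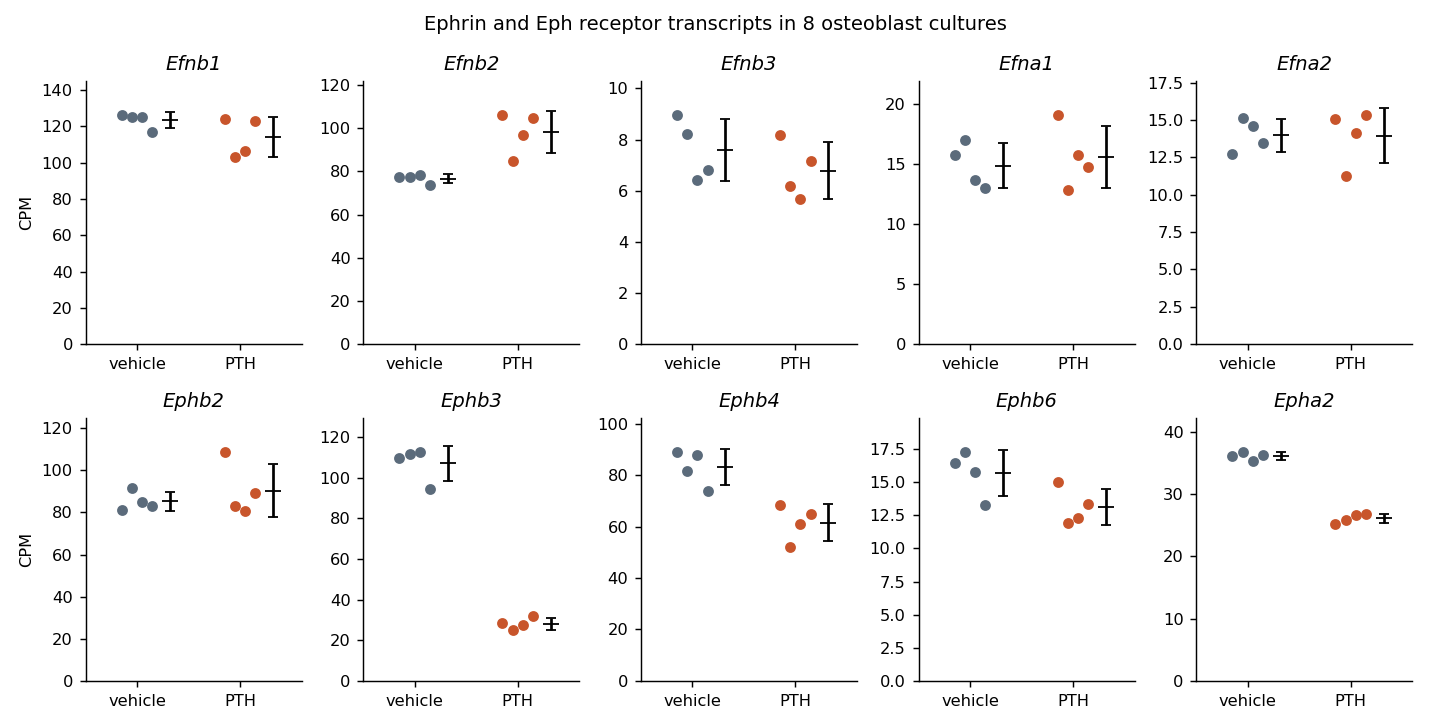
Level in CPM (vertical axes, each from 0) of the 10 genes in 4 vehicle and 4 PTH samples; dots are samples in the order of their replicate numbers, and the bar beside them is the mean ± SD. The PTH samples of Ephb3 sit between 24.9 and 32.1 CPM, far below the vehicle samples, those of Efnb2 sit above theirs, and those of Ephb4 and Epha2 sit below theirs.

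Within a treatment, the same sample was often the lowest for several of the 10 genes, a shared deviation that was not tested. PTH replicate 2, which had the smallest total count, was the lowest PTH sample for 7 of the 10 genes, and vehicle replicate 4 was the lowest vehicle sample for 6 of them. How often these samples were lowest over all tested genes was not counted, so nothing particular to the 10 genes can be read from this. A ratio of 2 transcripts within a sample removes a deviation only as far as both transcripts share it. Between treatments 6 ratios were compared, 4 of a ligand to a receptor, 1 between ligands and 1 between receptors. Exact two-sided permutation tests were used, with Benjamini-Hochberg adjustment over the 6. Efnb2 per Ephb4 had a log2 ratio between -0.20 and -0.01 in the vehicle samples and between 0.63 and 0.71 in the PTH samples. With PTH this ligand-receptor ratio was 1.73-fold higher (difference 0.79 on the log2 scale, exact p = 0.0286, adjusted p = 0.0343). Efnb2 and Ephb4 had each separated by treatment, in opposite directions. The exact p of their ratio was therefore fixed by the single genes and is no further test. The SD of the ratio among PTH samples, 0.0308, was smaller than that among vehicle samples, 0.0896. Efnb2 per Efnb1 rose from a log2 ratio of -0.68 ± 0.0157 to -0.22 ± 0.0620, a difference of 0.47, so the B ligands responded unequally (exact p = 0.0286, adjusted p = 0.0343).

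The receptors also differed from each other. Ephb2 per Ephb4 rose from a log2 ratio of 0.04 ± 0.152 to 0.55 ± 0.141, a difference of 0.51 (exact p = 0.0286, adjusted p = 0.0343). Efnb1 per Ephb4 rose by 0.32 on the log2 scale and Efna1 per Epha2 by 0.53, each with the same exact p of 0.0286 and adjusted p of 0.0343. For Efna1 per Epha2 the adjusted p was 0.0686 without vehicle replicate 1, 3 or 4 or without PTH replicate 1. The ratio of Efnb1 to Ephb2 overlapped between treatments, with a difference of -0.19 on the log2 scale (exact p = 0.0571, adjusted p = 0.0571).

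**Figure D2:**
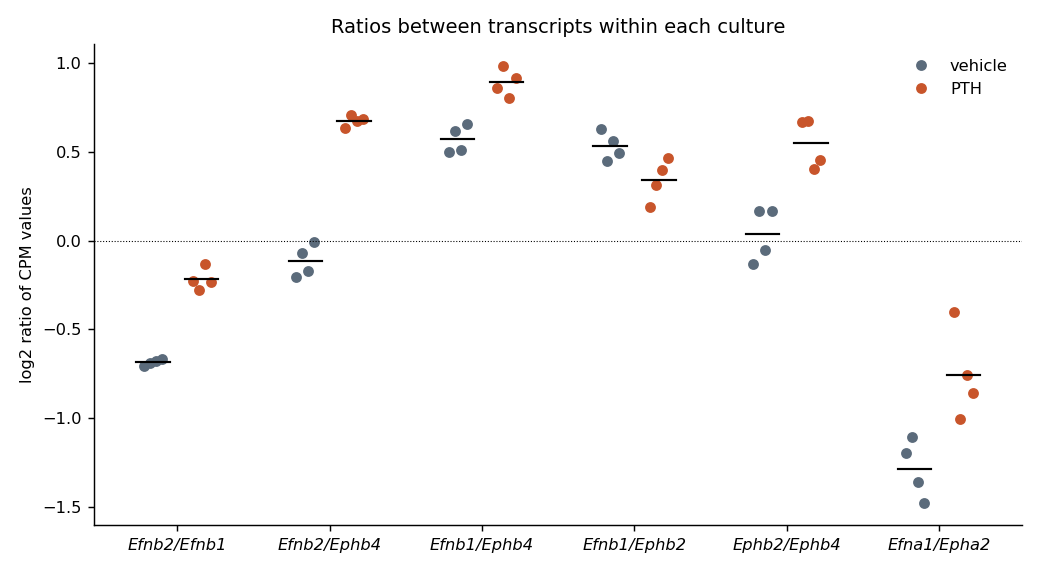
Log2 ratio of the CPM values of 2 transcripts within each sample (vertical axis) for 6 ratios; dots are 4 vehicle and 4 PTH samples and the line is the mean. The PTH samples lie above the vehicle samples in 5 of the ratios, with the widest gap for Efnb2 per Ephb4, and overlap them for Efnb1 per Ephb2.

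To order the 10 genes by level, counts were taken per length, as CPM per kb of the union of annotated exons. With vehicle the order was Efnb1 (35.7 ± 1.27), Ephb4 (17.9 ± 1.5), Ephb3 (16.1 ± 1.29), Efnb2 (11.2 ± 0.309), Efna1 (8.11 ± 1.02), Epha2 (7.72 ± 0.134), Ephb2 (6.76 ± 0.356), Efna2 (6.56 ± 0.517), Ephb6 (4.16 ± 0.458) and Efnb3 (2.38 ± 0.375). The ranges over the 4 samples overlapped between Ephb4 and Ephb3, between Efna1 and Epha2 and between Ephb2 and Efna2. Compared within each sample, Ephb4 was above Ephb3 in all 4. Efna1 was above Epha2 in 2 of the 4 samples and Ephb2 above Efna2 in 3. With PTH, Efnb1 stayed first at 33.1 ± 3.16 CPM per kb. Efnb2 followed at 14.3 ± 1.41 and Ephb4 at 13.3 ± 1.51, with overlapping ranges, but Efnb2 was above Ephb4 within each of the 4 samples. Ephb3 was at 4.25 ± 0.448 CPM per kb with PTH, in place 8, where its range overlapped that of Ephb6 at 3.48 ± 0.366. Within each of the 4 PTH samples Ephb3 was above Ephb6. With the longest transcript as the length, Ephb3 (22.6 CPM per kb) stood above Ephb4 (19.2 CPM per kb) with vehicle, so their order depended on the length used.

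Summed over the 5 B receptors, which adds Ephb1 to the 4 described, transcript levels were 45.4 ± 3.21 CPM per kb with vehicle and 28.7 ± 3.14 with PTH. All PTH sums lay below all vehicle sums, at 0.633 of the vehicle mean. The summed B ligands did not separate, at 49.3 ± 1.77 and 49.5 ± 4.79 CPM per kb. These sums describe the samples and were not tested. Within the B receptors the share of Ephb3 was 35.5% ± 0.486 with vehicle and 14.8% ± 1.22 with PTH, while that of Ephb2 was 14.9% ± 1.145 and 24.9% ± 1.64 and that of Ephb4 was 39.5% ± 1.41 and 46.2% ± 1.56. The shares of Ephb2 and Ephb4 were therefore higher with PTH although their own levels did not pass (Ephb2) or fell (Ephb4). Within the B ligands, Efnb2 made up 22.7% ± 0.323 with vehicle and 28.9% ± 0.961 with PTH, and Efnb1 72.5% ± 0.386 and 66.8% ± 0.714. With the longest transcript as the length, Ephb3 made up 41.5% with vehicle and 18.2% with PTH.

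**Figure D3:**
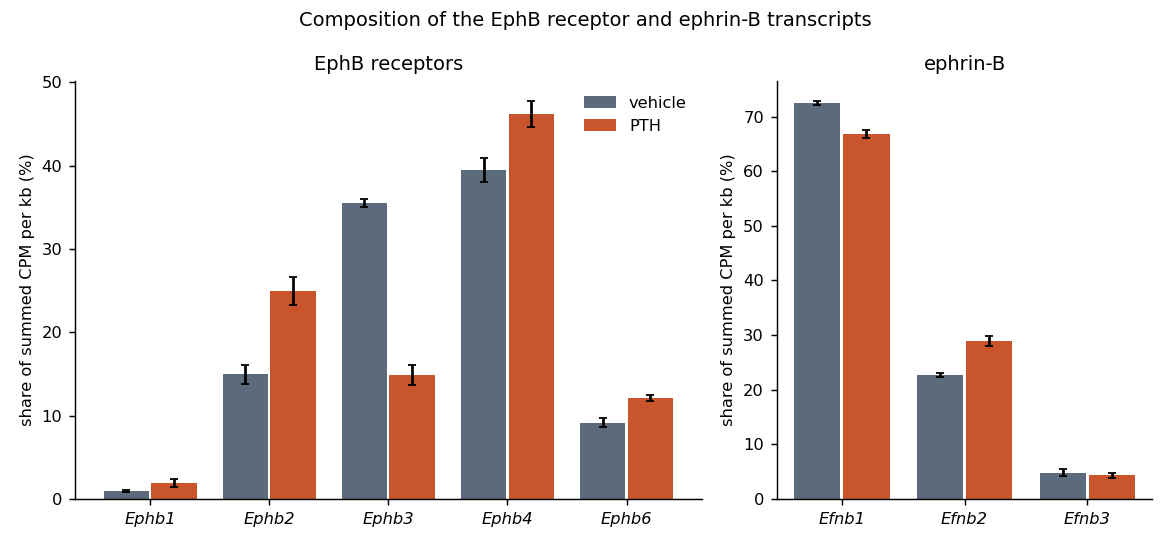
Share in percent of the summed CPM per kb (vertical axes) that each gene contributes to the 5 B receptors (left) and the 3 B ligands (right); bars are means of 4 samples per treatment and error bars are SDs. The Ephb3 bar drops from 35.5% to 14.8% with PTH and the Efnb2 bar rises from 22.7% to 28.9%.

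The rest of the family gave 3 further ligands and 9 further receptors, of which Epha6 and Epha10 had no count in any sample. Of the 10 tested, 3 were higher and 3 were lower with PTH, beside 23.3% and 22.5% of all genes. Epha4, which binds ephrins of both classes, had the largest increase, from 44.6 ± 3.27 to 84.0 ± 8.50 CPM, a log2 change of 0.91 with an adjusted p of 3.09e-06. Epha5 rose by 0.55 (adjusted p = 0.0111) and the ligand gene Efna3 by 0.65 on the log2 scale (adjusted p = 0.00536), the latter at 2.79 to 5.90 CPM. Epha7 showed the strongest decrease, from 19.0 ± 0.302 to 9.45 ± 0.981 CPM, a log2 change of -1.004 with an adjusted p of 2.87e-06. Efna4 fell by 0.74 (adjusted p = 2.26e-04) and Epha1 by 0.56 on the log2 scale (adjusted p = 0.00503).

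Per length, Epha3 was the most abundant Eph receptor transcript, at 29.1 ± 1.26 CPM per kb with vehicle and 24.8 ± 4.16 with PTH, and did not pass (log2 fold change -0.23, 95% interval -0.46 to 0.00087, adjusted p = 0.0968). Efna5 (-0.08, adjusted p = 0.503), Ephb1 (0.45, adjusted p = 0.151) and Epha8 (0.08, adjusted p = 0.897) did not pass either, and Epha8 was measured at 0.469 to 1.92 CPM. Taking all 20 tested genes of the family, 2 of 8 ephrins were higher and 1 was lower, and 2 of 12 receptors were higher and 5 were lower, which is 37.5% of the ephrins and 58.3% of the receptors called, beside 45.8% of all tested genes. The median log2 fold change was -0.04 for the ephrins and -0.24 for the receptors. Ephb3 changed more than any other ephrin or Eph gene tested.

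**Figure D4:**
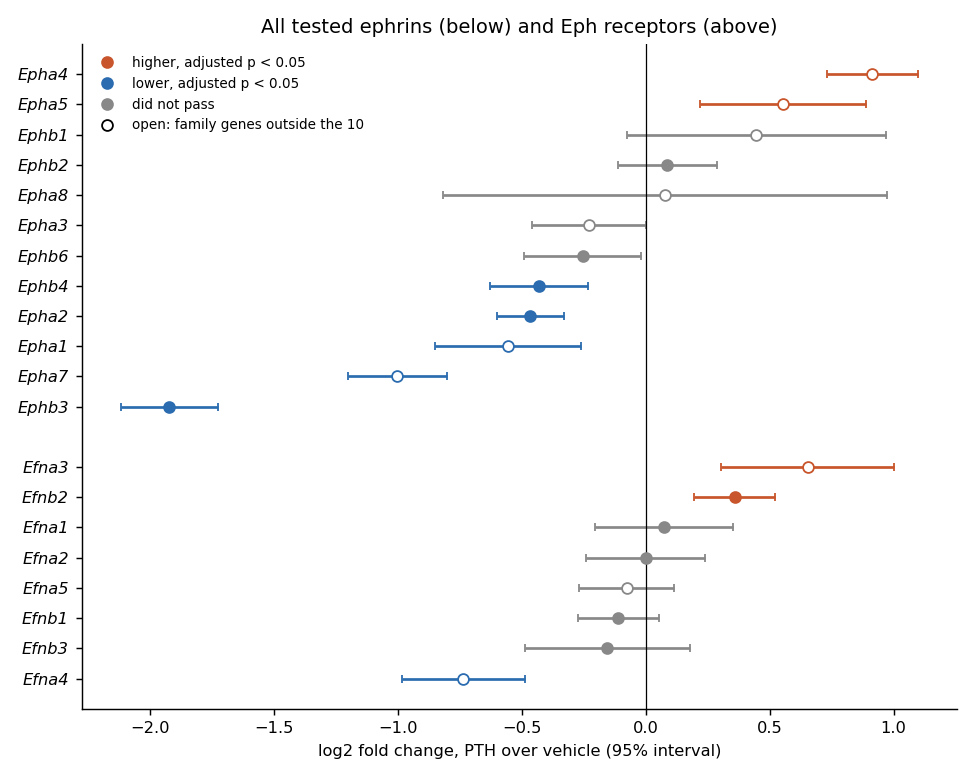
Log2 fold change of PTH over vehicle with its 95% interval (horizontal axis) for the 20 tested genes of the family, receptors above and ephrins below; filled dots are the 10 genes described and open dots the other family genes. Ephb3 lies alone at -1.92, and Epha4 at 0.91 is the largest increase.

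Partner genes of the pathway were taken from hand-written lists. Forward effectors are the kinases, adaptors and exchange factors that carry a signal from the Eph kinase to the cytoskeleton. Of 40 tested forward effectors, 6 were higher and 10 were lower with PTH, which is 40% called beside 45.8% of all tested genes, and their median log2 fold change was -0.04. Rock2, a kinase that drives contraction of the cytoskeleton, had the largest increase, from 210 ± 11.6 to 432 ± 16.9 CPM, a log2 change of 1.04 with an adjusted p of 1.17e-07. Vav2, an exchange factor recruited by activated Eph receptors, showed the strongest decrease, from 29.1 ± 4.57 to 14.6 ± 1.24 CPM, a log2 change of -0.999 with an adjusted p of 2.27e-05. The remaining 24 did not pass.

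Reverse effectors bind the tail of B ephrins or act beneath them. Of 14 tested, 6 were higher and 3 were lower, which is 64.3% called beside 45.8% of all tested genes, and the median log2 fold change was -0.07. Rgs3, a regulator of G protein signaling with an isoform that binds B ephrins through a PDZ domain, fell from 77.2 ± 4.33 to 16.8 ± 1.14 CPM, a log2 change of -2.20 with an adjusted p of 3.44e-10, beside -1.92 for Ephb3. The table counts whole genes and does not separate that isoform. Stat3, a transcription factor that B ephrins can engage and that also acts downstream of cytokines, rose from 166 ± 1.38 to 346 ± 33.1 CPM, a log2 change of 1.06 with an adjusted p of 2.55e-07.

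Among 15 proteases and phosphatases that shed ephrins or end Eph signals, 3 were higher and 3 were lower, which is 40% called beside 45.8% of all tested genes, and the median log2 fold change was -0.02. Ptprb, a receptor phosphatase that can dephosphorylate EphB4, rose from 2.72 ± 0.724 to 23.2 ± 1.87 CPM, a log2 change of 3.09 with an adjusted p of 2.30e-08. Its assembled locus holds 1 further gene. Ptpn1, the phosphatase PTP1B, rose from 40.95 ± 5.33 to 94.8 ± 14.4 CPM, a log2 change of 1.21 with an adjusted p of 4.79e-06. Rhbdl2, a rhomboid protease known to cleave B ephrins, had the largest decrease (log2 fold change -0.86, adjusted p = 0.0162) at 1.56 to 5.93 CPM, and did not pass without vehicle replicate 4 (adjusted p = 0.0557). Over all lists, the other ephrins and Eph receptors included, 18 of 79 tested genes were higher and 19 were lower, which is near the share of all genes called.

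**Figure D5:**
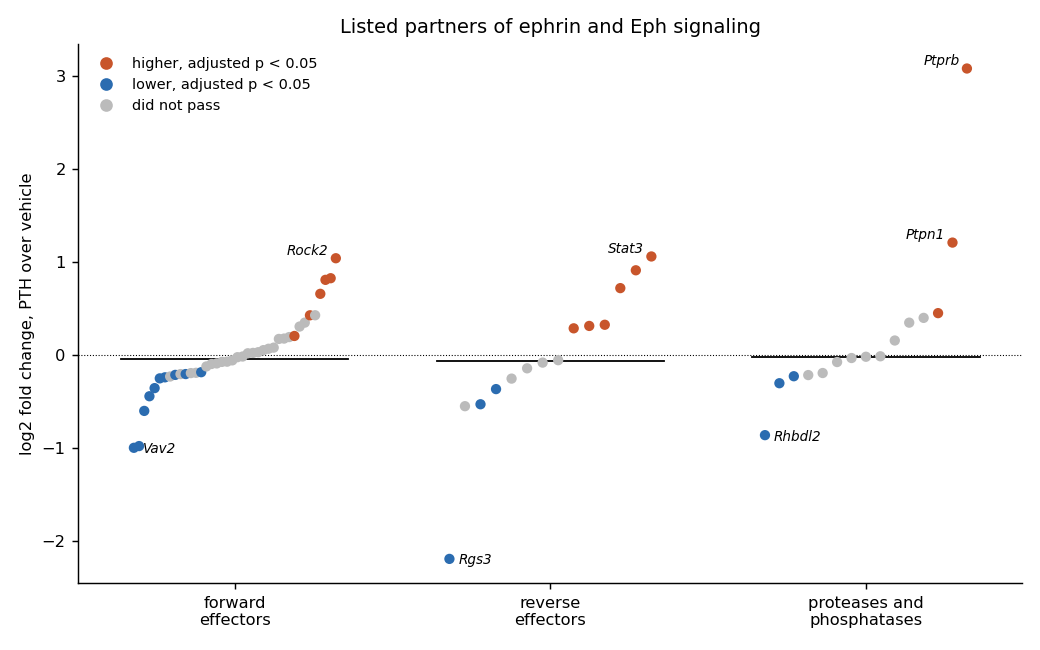
Log2 fold change of PTH over vehicle (vertical axis) for the tested genes of 3 partner lists, ordered by value within each list; colour gives the call and the black line is the median of the list. Most genes lie close to 0, while Ptprb at 3.09 and Rgs3 at -2.20 lie far from the rest.

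Endothelial cells also carry Efnb2 and Ephb4, and macrophages and osteoclasts carry Efnb2, so markers of other cell types are given beside these genes. Of 10 endothelial markers, 7 were tested, Kdr was called higher and Tek lower, and their summed level was 9.39 to 10.8 CPM with vehicle and 9.33 to 11.3 CPM with PTH. The highest of the 10 were Tek, Egfl7 and Kdr, which reached 5.47, 3.58 and 2.74 CPM in their highest samples. The defining endothelial genes Pecam1 and Cdh5 had at most 0.873 and 0.730 CPM, and Emcn had no count. Of 11 macrophage and osteoclast markers, 10 were tested and Lyz2 alone was called, higher with PTH. Their sum was 1481 to 2003 CPM with vehicle and 2117 to 2381 CPM with PTH, and without Lyz2 it was 719 to 823 and 786 to 947 CPM. Over the 8 samples Adgre1 lay between 50.6 and 93.3 CPM, Csf1r between 53.5 and 95.7 and Cd68 between 48.4 and 81.3. C1qa lay between 28.3 and 54.1 CPM, C1qb between 36.3 and 63.0 and Ptprc between 9.37 and 18.4. Of the osteoclast genes in that list, Ctsk lay between 384 and 554 CPM, Acp5 between 17.9 and 26.5 CPM and Mmp9 between 5.93 and 11.1 CPM over the 8 samples, while Calcr had at most 3 counts in any sample.

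Summed mural cell markers were lower with PTH, at 1758 to 2097 CPM with vehicle and 1394 to 1742 CPM with PTH, and of 7 only Acta2 was called, lower. Without Acta2 the mural sum was 73.9 to 80.2 CPM with vehicle and 69.2 to 73.3 CPM with PTH. The 8 neural and glial markers summed to 27.3 to 30.2 and 43.8 to 49.4 CPM, with Tubb3 the only one called, higher, and without Tubb3 the sums overlapped, at 18.0 to 20.9 and 16.3 to 23.0 CPM. The 7 epithelial markers summed to 0.625 to 2.10 and 0.861 to 2.28 CPM, with Krt18 called higher. Of the 10 osteoblast markers, Runx2, Sp7 and Dmp1 were called lower and none higher, and of the 8 adipocyte markers Pparg alone was called, lower. The part of these cell type markers in the results was not tested, and in bulk samples fewer cells of a type cannot be told apart from less RNA per cell.

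Finally, the genes whose profiles over the 8 samples were most like those of Efnb2 and Ephb3, the largest increase and the largest decrease among the 10, were sought among the 14070 tested genes whose mean level reached 1 CPM. Likeness was the root mean square difference between log2 profiles centred on their means. Closest to Efnb2 were Thy1 (0.0347), a surface glycoprotein of fibroblasts and stromal cells, Lmo4 (0.0373), a LIM-domain transcription regulator, and Tgoln1 (0.0399), a protein of the trans-Golgi network. Thy1 rose from 441 ± 13.6 to 545 ± 41.8 CPM. Closest to Ephb3 were Ctgf (0.0868), a matricellular protein, Fam110b (0.0952) and Zfp41 (0.105). Ctgf fell from 132 ± 7.61 to 37.9 ± 4.99 CPM, a log2 change of -1.80 with an adjusted p of 1.64e-08. The choice by likeness already called for a decrease close to that of Ephb3, so neither value is a further result. The likeness to Ephb3 was looser than that to Efnb2 in log2 units, and with 2 treatments it mainly reflects an equal size of change.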

How the data were processed

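RNA sequencing of 8 mouse calvarial osteoblast cultures, 4 per treatment, was analysed from gene counts. Libraries were enriched for poly(A) RNA. Alignment to GRCm38 used HISAT2, sorting SAMtools and assembly StringTie2, whose companion script turned transcript coverage into the raw gene counts, not normalized, that the authors deposited. The read length given to that script, the annotation version and the strand setting were not given in the sources used here, and counts scale with the first. The samples were grouped by their titles. Positions, exons and overlaps came from GENCODE M21 and promoter sequences from RefSeq (GRCm38.p6).

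Genes passing edgeR 4.0.16's filterByExpr (minimum count 10, minimum total 15) were TMM-normalized in R 4.3.3. They were tested by its two-sided quasi-likelihood test with Benjamini-Hochberg adjustment over 16736 genes (threshold 0.05). On simulated counts with 200 of 16736 genes changed, this test called 167 of the changed genes and 10 of the unchanged ones. Every planted log2 change was at least 1 in size, more than the changes of Efnb2, Ephb4 and Epha2 in the data. In the data 45.8% of genes were called. The simulation therefore covers neither changes as small as those of these 3 genes nor a response of that breadth. Exact permutation tests used log2(CPM + 0.1) in Python 3.11.15 with NumPy 2.4.6 and pandas 2.3.3. Plots used matplotlib 3.10.9. Values are means ± SD of 4 samples. Precision depends on the counts and on the spread between samples, which the intervals cover. Each of the 10 genes had at least 205 counts in every sample. The 10 genes and the lists were chosen with earlier results of these data known. All 10 genes and all other ephrins and Eph receptors are named. From the partner lists, genes are named that passed with no overlap and a log2 fold change of at least 1, or else the largest change each way that passed, except where naming rests on a neighbouring profile, a marker list or a check of the labels. Alternatives were DESeq2 1.42.0, DESeq2 size factors in edgeR, no filter, the replicate block, halved counts, counts summed by symbol, each sample left out in turn and, added after the data were seen, an offset for transcript length. Reads were not analysed here.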

Additional observations from a re-analysis of the deposited data

Results flagged for a closer look

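Each of the 10 genes was checked in each treatment for a sample far from the other 3 (gap to the nearest sample over the range, Dixon's 95% critical value for 4 samples), which chance exceeds in about 1 group in 20. Of the 20 groups, 2 exceeded it, both through vehicle replicate 4. Efnb1 was at 117 CPM there, where the other vehicle samples lay between 125 and 126.0 CPM. Ephb3 was at 94.3 CPM there, where the others lay between 110 and 113 CPM. Without vehicle replicate 4 the log2 fold change was -1.98 for Ephb3 and -0.14 for Efnb1 (edgeR's adjusted p = 2.48e-08 and 0.238).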

How the results depend on the processing

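Over 15 alternatives, the calls of Efnb2, Ephb3, Ephb4 and Epha2 held in every one. Each of the 10 genes had 1 row, so summing counts by symbol could reach them only through the other genes. Their log2 fold changes lay between 0.32 and 0.43, -1.99 and -1.86, -0.49 and -0.35, and -0.50 and -0.40, with edgeR's or DESeq2's adjusted p at most 0.0115, 9.09e-07, 0.0101 and 0.00119. The number of the 10 genes called higher was 1 throughout and the number called lower was 3, or 4 without vehicle replicate 4 or PTH replicate 1, when Ephb6 joined. For all tested genes the count called lay between 6671 and 8074, and for the 79 tested genes of all pathway lists, the other ephrins and Eph receptors included, between 16 and 22 higher and between 15 and 24 lower. Yes1 and Dvl1 kept their calls in 7 of 15 alternatives, Abl1 in 8 and Aph1a in 9. Efna1, Efna2 and Ephb2 did not pass in any alternative, and their estimates took both signs.

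After removal of the treatment means, samples with the same number correlated across genes at between -0.0409 and 0.0274, and 1 of the 4 vehicle samples was closest to its own number, so the numbers gave no pairing. With the replicate block, 1 gene of the 10 was higher and 3 were lower, and the log2 fold change of Ephb3 was -1.93. For the ratios, permutation within 4 such pairs cannot give a p under 0.125. That was the value for all 6 ratios, so this permutation does not set apart the 5 that passed. Of 48 ratio tests with a sample left out, 43 kept their side of the threshold. Those of Efnb2 per Ephb4 are among them, and their exact p was again fixed by the single genes. The Efnb1 to Ephb2 ratio passed without PTH replicate 4 (adjusted p = 0.0286). Genes with few counts, such as Epha8, are limited by depth.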
